A study of Mus musculus with 8 samples.

Results

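Chromatin immunoprecipitation followed by sequencing (ChIP-seq) had been used to map where H3K9me1 and H3K9me3, the mono- and trimethylated forms of lysine 9 of histone H3, lie in mouse embryonic fibroblasts (MEFs), and the enriched regions of both marks were compared on 9 chromosomes. The comparison asks whether the lowest and the highest methylation state of the same residue occupy the same or separate chromatin. All rows of both region lists on chromosomes 5, 8, 9, 10, 11, 14, 15, 17 and 19 were taken, which gave 36774 H3K9me1 and 23355 H3K9me3 regions, or 60129 of the 98931 regions of the 3 marks in the series. The series held 8 samples in 4 groups of 2 replicates, namely input, H3K9me1, H3K9me2 and H3K9me3. Each group carried the label wild type for genotype and no treatment. The study's methods describe the cells called wild type as the Eset1-conditional MEF line (E1c) before deletion of Eset1, so that all samples share a conditional allele of that methyltransferase. H3K9me1 and H3K9me3 were each deposited as 1 region list without a score or a value per replicate. No SD or replicate n can therefore be given, no test was made, and every comparison below is a description of 1 map per mark. The lists hold no expression values, so the fibroblast label could not be checked against marker genes.

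Methylation of H3K9 is placed by enzymes that add methyl groups stepwise, and the states are used differently. H3K9me3 marks constitutive heterochromatin, silenced retrotransposons and inactive gene clusters, where it is bound by HP1 proteins, and in mouse it depends largely on Suv39h1, Suv39h2 and Setdb1. H3K9me1 is both a substrate for the higher states and a mark found over transcribed gene bodies, and G9a and Glp are its main sources together with H3K9me2. A region here is a run of bins of 750 bp that the authors' hidden Markov model called enriched. A shared bin means that both marks were called in the same bin of a cell population, so marks on 1 nucleosome, on neighbouring nucleosomes and in different cells cannot be told apart.

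3 stretches of 300 bases show arrangements that the maps contain, each at the middle of the region or of the shared stretch (GRCm38 plus strand, RefSeq genome sequence). They are the widest H3K9me1 region free of H3K9me3, the widest H3K9me3 region free of H3K9me1, and the longest stretch under both marks. The capitals mark CpG dinucleotides, the sites of DNA methylation, whose density differed between the marks as described further on.
H3K9me1 alone, chr5:140072476-140072775, intron of Mad1l1: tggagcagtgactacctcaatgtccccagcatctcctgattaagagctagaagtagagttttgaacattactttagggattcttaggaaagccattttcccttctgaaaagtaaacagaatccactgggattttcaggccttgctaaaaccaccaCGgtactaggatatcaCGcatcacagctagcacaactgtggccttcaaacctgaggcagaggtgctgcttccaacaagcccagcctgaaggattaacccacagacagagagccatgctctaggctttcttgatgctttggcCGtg
H3K9me3 alone, chr5:128370976-128371275, intron of Tmem132d: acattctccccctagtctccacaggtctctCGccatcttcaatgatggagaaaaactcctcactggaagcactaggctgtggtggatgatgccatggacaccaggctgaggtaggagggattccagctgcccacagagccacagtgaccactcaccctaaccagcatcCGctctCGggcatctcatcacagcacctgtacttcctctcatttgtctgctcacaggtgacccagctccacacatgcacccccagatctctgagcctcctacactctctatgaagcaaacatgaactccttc
Both marks, chr17:5638351-5638650, intron of Zdhhc14: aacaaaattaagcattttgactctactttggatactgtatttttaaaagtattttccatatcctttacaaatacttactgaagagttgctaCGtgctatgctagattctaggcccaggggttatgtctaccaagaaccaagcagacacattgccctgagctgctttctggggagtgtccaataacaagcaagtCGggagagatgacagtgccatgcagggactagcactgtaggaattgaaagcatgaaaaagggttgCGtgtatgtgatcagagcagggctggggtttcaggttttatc

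The H3K9me1 region around the first of these sequences lay at chr5:140017501-140127750, measured 110.2 kb, and was 88.5% intronic within Mad1l1, a spindle checkpoint gene. No base of it carried H3K9me2. The H3K9me3 region around the next sequence lay at chr5:128019751-128722500, measured 702.8 kb, met Tmem132d, whose start it covered, and also Fzd10, a Wnt receptor gene, and Piwil1, a germline gene of the piRNA pathway. H3K9me2 covered 1.49% of it. The longest stretch with both marks, at chr17:5537251-5739750, measured 202.5 kb, lay to 99.6% in introns of Zdhhc14, which encodes a palmitoyltransferase, and carried H3K9me2 over its whole length. The 300 bases shown held 3 CpGs in each of the 3 sequences. These 3 places were picked as extremes and do not stand for the rest of the maps.

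H3K9me1 and H3K9me3 covered similar lengths in regions of different size. H3K9me1 covered 291.5 Mb, or 27.9% of the 9 chromosomes, and H3K9me3 covered 265.5 Mb, or 25.4%. The median region was 4.5 kb wide for H3K9me1 and 5.25 kb for H3K9me3. The upper tails differed more, with a 90th percentile of 17.2 kb and 23.2 kb, a widest region of 267.8 kb and 747.0 kb, and 503 against 821 regions of at least 50 kb. Coverage differed strongly between chromosomes, and it did so for both marks. H3K9me1 ranged from 10.9% of chromosome 14 to 55% of chromosome 10, and H3K9me3 from 8.63% of chromosome 11 to 57.1% of chromosome 10. Chromosomes 10, 15, 8, 19 and 17, in this order, had the most of either mark. Whether the calling treated all chromosomes alike is not given in the sources used here, so differences between chromosomes in the calls and in the cells cannot be told apart. This limit applies to each contrast between chromosomes below, and the main pooled values are given with their range over chromosomes.

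Over all 9 chromosomes the marks shared about as much sequence as their coverages alone would give, but this average joined chromosomes that went opposite ways. They shared 102.6 Mb, against 97.6 Mb expected from the product of their coverages on each chromosome, a ratio of 1.05. The ratio fell below 1 on 4 chromosomes, with 0.567 on chromosome 9, 0.571 on chromosome 11, 0.628 on chromosome 5 and 0.712 on chromosome 19. It was above 1 on the other 5, from 1.07 on chromosome 15 and 1.08 on chromosome 8 through 1.14 on chromosome 10 and 1.15 on chromosome 14 to 1.22 on chromosome 17. On chromosome 11, 4.93% of the H3K9me1 length carried H3K9me3, against 65.1% on chromosome 10. Chromosome 10 alone held 46.8 Mb of the shared length, and without it the pooled ratio was 0.988.

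The low sharing on those 4 chromosomes was strongest in wide windows and faded as windows narrowed. When the expected length was computed within windows, so that it kept the local level of each mark, the ratio on chromosome 5 changed from 0.431 in windows of 10 Mb to 0.809 at 1 Mb and 1.05 at 100 kb. On chromosome 9 it changed from 0.514 at 10 Mb to 0.754 at 1 Mb and 1.02 at 100 kb. Chromosome 11 stayed below 1 for longer, with 0.534 at 10 Mb, 0.804 at 1 Mb, 0.98 at 100 kb and 0.966 at 50 kb. Chromosome 19 stood at 0.765 at 10 Mb and 1.03 at 1 Mb. In windows of 20 kb the lowest of the 9 chromosomes stood at 1.01 and the pooled ratio at 1.05. As windows approach the width of regions, the expected length nears the shared length by construction, so the narrowest windows say little on sharing. The pooled ratio was 1.04 at 1 Mb, with 4 of 9 chromosomes below 1. Across windows of 1 Mb, the coverages of the marks had a Spearman's rho of -0.551 on chromosome 19, -0.235 on chromosome 9 and -0.123 on chromosome 11, and between 0.0307 and 0.221 on the other 6. Neighbouring windows of a library are not independent, so these coefficients only describe the maps. For scale, H3K9me1 with H3K9me2 had a whole-chromosome ratio of 1.44 and H3K9me2 with H3K9me3 one of 1.88, and both pairs were above 1 on 9 of 9 chromosomes at every window size. At 20 kb these pairs too had moved toward 1, to 1.08 and 1.11.

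**Figure D1:**
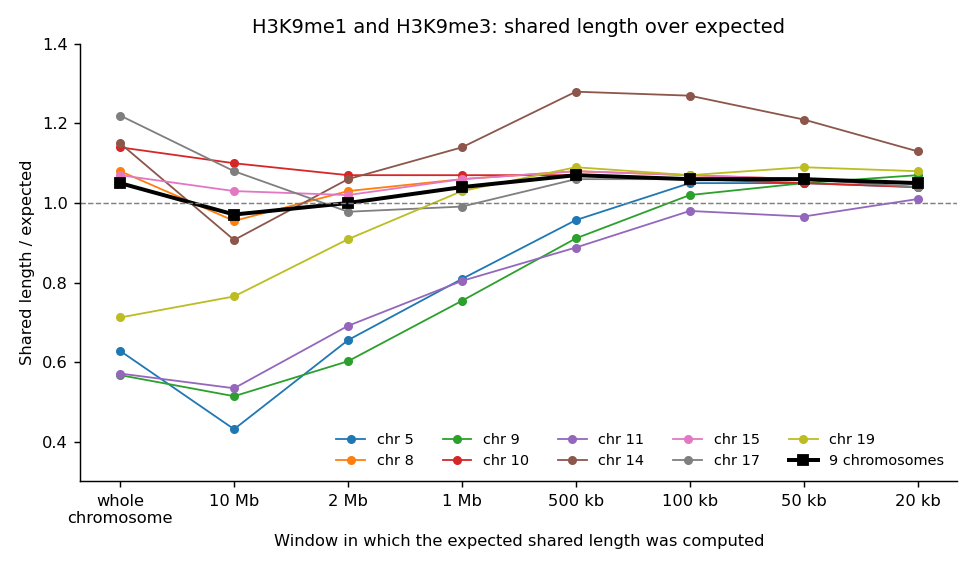
Length shared by H3K9me1 and H3K9me3 divided by the expected length (vertical axis, ratio) against the window in which the expectation was computed (horizontal axis), with a line for each of the 9 chromosomes and a black line for all of them. Chromosomes 5, 9, 11 and 19 start between 0.567 and 0.712 for whole chromosomes and approach the others as windows shrink, and at 20 kb all 9 lie between 1.01 and 1.13.

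Sharing of H3K9me1 and H3K9me3 lay almost wholly where H3K9me2, the intermediate state, had been called too. Of sequence without N, 188.8 Mb (18.7%) carried H3K9me1 only, 162.9 Mb (16.1%) H3K9me3 only, 102.6 Mb (10.1%) both, and 558.1 Mb (55.1%) neither. H3K9me2 covered 93% of the sequence with both marks, from 78.6% to 94.7% over the chromosomes. It covered 46% of the sequence with H3K9me3 only, 20.1% of that with H3K9me1 only and 5.59% of that with neither. In the 772.9 Mb without H3K9me2, H3K9me1 and H3K9me3 shared 7.22 Mb, a ratio of 0.328 to the expected length, which ranged from 0.168 on chromosome 11 to 0.599 on chromosome 10 and was below 1 on 9 of 9 chromosomes. With the expectation taken in windows of 1 Mb the ratio was 0.677, from 0.395 to 0.936. In the 239.5 Mb with H3K9me2 they shared 95.4 Mb, with a ratio of 0.963 by chromosome and 0.986 by window. H3K9me2 overlaps both marks more than expected, so choosing sequence by its presence moves these ratios by construction, and the size of that shift was not tested.

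Most H3K9me1 regions met no H3K9me3, but H3K9me3 covered only 25.4% of the 9 chromosomes, and H3K9me1 27.9%. The share of regions expected to meet was not computed. These counts alone therefore do not show that regions met less or more than their coverages would give. Of 36774 H3K9me1 regions, 23692 (64.4%) stood apart, 5757 (15.7%) were covered in part and 7325 (19.9%) lay wholly under H3K9me3. The 35.6% that met H3K9me3 by at least 1 bp (95% Wilson interval 35.1 to 36.1) ranged from 7.74% to 72.3% over the chromosomes. Of 23355 H3K9me3 regions, 10712 (45.9%, interval 45.2 to 46.5) met H3K9me1, from 17.1% to 69.8% over the chromosomes, 5696 of them lying wholly under it. These intervals cover counting error only. Wide regions met the other mark more often. For H3K9me1 the share meeting H3K9me3 went from 29.9% of regions under 3 kb to 89.9% of those of 48 kb or more, and for H3K9me3 the share meeting H3K9me1 went from 38.2% to 79.8%. The share of length is less tied to width. It was 27.6% for the H3K9me1 regions under 3 kb, 25.4% at 6 to 12 kb and 63.9% at 48 kb or more, and for H3K9me3 it was 36.3%, 33% and 43.5%. Within chromosomes the widest class exceeded the narrowest on 6 of 9 for H3K9me1 and 4 of 9 for H3K9me3.

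Regions that stood apart lay far from the other mark. The 23692 separate H3K9me1 regions had a median distance of 46.5 kb to the nearest H3K9me3 region, with quartiles of 12 and 132.8 kb, and the median ranged from 9 to 146.2 kb over the chromosomes. Of these, 343 (1.45%) abutted H3K9me3 and 9.95% lay within 3 kb. Bins that carried neither mark had a median distance of 34.5 kb to H3K9me3, 4.29% adjoined it and 16% lay within 3 kb. The 12643 separate H3K9me3 regions had a median distance of 132.0 kb to H3K9me1, 244 (1.93%) abutted it and 54.2% lay beyond 100 kb. For unmarked bins the median to H3K9me1 was 38.2 kb and 7.24% adjoined it. Within chromosomes, separate H3K9me1 regions had a longer median distance to H3K9me3 than unmarked bins on 9 of 9, such as 20.2 against 9 kb on chromosome 8 and 146.2 against 101.2 kb on chromosome 11. For H3K9me3 regions this held on 8 of 9, with 53.2 against 6 kb on chromosome 10, and the exception was chromosome 14, with 198.0 against 220.5 kb. The share of regions within 3 kb lay below that of unmarked bins on 9 of 9 chromosomes for either mark. A region's distance is that of its nearer end, which by itself shortens it relative to single bins. Regions that met the other mark were left out first, whereas no unmarked bin beside that mark was. This choice by itself lowers the share of regions close to the other mark. The size of either shift was not tested, so the contrast with unmarked bins only describes the maps.

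Within most chromosomes, H3K9me1 was lower just outside H3K9me3 regions than elsewhere outside them. Pooled over the chromosomes it was not, with 28.8% covered in the first 0.75 kb outside, 25.3% over all sequence outside and 23.7% beyond 96 kb. Coverage in each band of distance was divided by the H3K9me1 coverage of all sequence outside H3K9me3 on the same chromosome. In the first 0.75 kb outside an end the median over the chromosomes was 0.756, from 0.571 on chromosome 9 to 1.04 on chromosome 10, and 8 of 9 lay below 1. It was 0.69 at 0.75 to 1.5 kb, 0.71 at 1.5 to 3 kb, 0.835 at 3 to 6 kb, 0.849 at 6 to 12 kb and 0.963 at 12 to 24 kb. Beyond 96 kb it reached 1.17, with 2 of 9 chromosomes below 1. Chromosome 10 went the other way, from 1.04 at the end to 0.794 beyond 96 kb. The median was lower still beside wide H3K9me3 regions. Within 3 kb of any H3K9me3 region the ratio was 0.718, and beside those of at least 20 kb it was 0.512, from 0.291 on chromosome 9 to 0.857 on chromosome 10. Chromosome 17 went the other way, from 0.741 to 0.844, and chromosome 8 hardly moved (0.776 and 0.777). Where H3K9me2 bins were left out the median within 3 kb of any H3K9me3 region was 0.454, below 1 on 9 of 9 chromosomes. H3K9me2 overlaps H3K9me1 more than expected and is densest near H3K9me3 ends, so leaving it out moves this ratio by construction. The size of that shift was not tested. H3K9me2 showed the opposite course in the same bands, with a median ratio of 3.09 in the first 0.75 kb and 0.244 beyond 96 kb. H3K9me3 beside H3K9me1 ends was likewise low, at a median of 0.829 in the first 0.75 kb outside (from 0.493 to 0.918, 9 of 9 below 1), and 1.32 at 48 to 96 kb.

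Inside H3K9me3 regions the chromosomes separated. In the first 0.75 kb inside an end the H3K9me1 ratio had a median of 0.93, from 0.669 to 1.2. At 24 to 48 kb from the nearest end it was 0.0108 on chromosome 11, 0.0669 on chromosome 9, 0.278 on chromosome 5 and 0.526 on chromosome 19, while on the other 5 chromosomes it was 1.17 to 4.26. At this depth, which only wide regions reach, H3K9me3 regions were nearly free of H3K9me1 on chromosomes 9 and 11. On chromosomes 8, 10, 14, 15 and 17 they held more H3K9me1 than the mean outside H3K9me3 on the same chromosome. That mean is taken over the whole chromosome and not over the flanks. The number of regions behind each chromosome's value is not given here, so a value can rest on few of them. Beyond 96 kb inside, which 5 chromosomes reached, the ratio was 0.103 on chromosome 5, 0.505 on chromosome 17, 0.827 on chromosome 15, 1.21 on chromosome 8 and 1.57 on chromosome 10. The value of 4.26 belongs to chromosome 14, whose H3K9me1 coverage outside H3K9me3 was the lowest of the 9 at 11%.

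**Figure D2:**
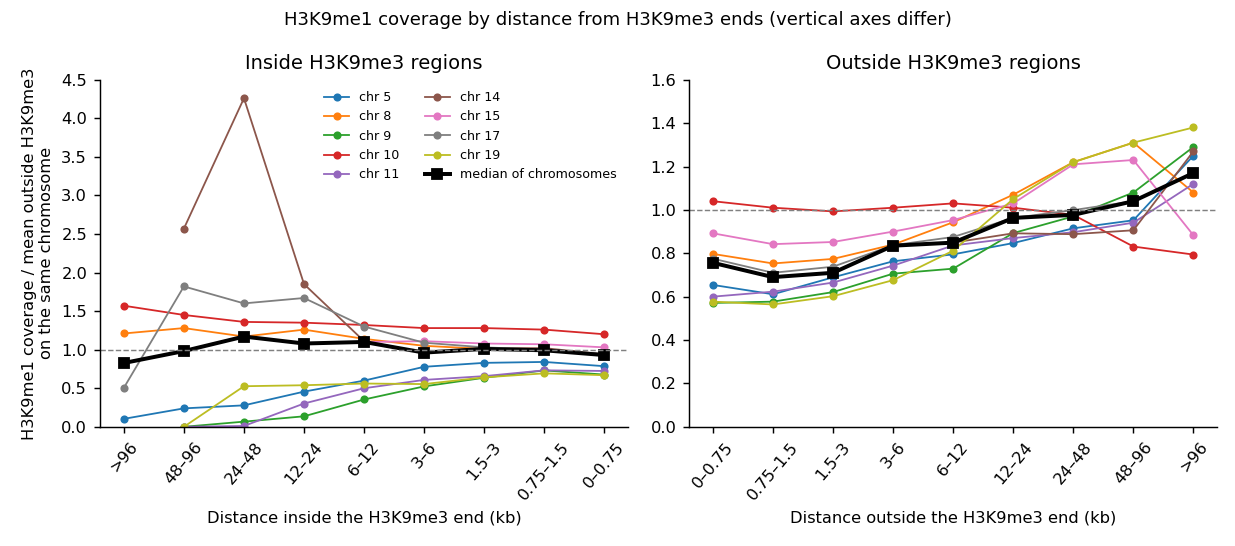
H3K9me1 coverage divided by its mean outside H3K9me3 on the same chromosome (vertical axes, ratio, with different ranges) by distance in kb from the nearest H3K9me3 end, inside regions on the left and outside on the right, for each of the 9 chromosomes and their median in black. Outside, the median climbs from 0.756 at the end to 1.17 beyond 96 kb, and inside, at 24 to 48 kb, chromosomes 5, 9, 11 and 19 lie at 0.0108 to 0.526 and the others at 1.17 to 4.26.

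At the ends themselves, a direct handover from one mark to the other was rare. Of 46710 H3K9me3 ends, H3K9me1 was absent on both sides at 30448 (65.2%) and ran through at 12906 (27.6%). It stopped at the end from the inside, leaving H3K9me3 and H3K9me1 together, at 2883 (6.17%), and began outside where H3K9me3 stopped at 473 (1.01%). Of the ends where H3K9me1 changed, handovers made up 14.1% (Wilson interval 13 to 15.3), from 10.3% to 24.1% over the chromosomes. H3K9me1 changed at 7.18% of H3K9me3 ends, against 4.85% of neighbouring bin pairs within H3K9me3 and 5.34% of those outside. It was above the inside value on 9 of 9 chromosomes and above the outside value on 6. For this count the pairs outside left out bins with N, which the 5.34% includes. Stretches with H3K9me1 only were bordered by unmarked sequence on 80.2% of their sides, by both marks on 19.1% and by H3K9me3 only on 0.7%. Stretches with both marks, which had a median of 3.75 kb, were bordered by H3K9me3 only on 50.4%, by H3K9me1 only on 40.5% and by unmarked sequence on 9.06%.

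Sequence under each mark alone differed in composition. H3K9me1-only sequence had 45.7% GC and 11.2 CpGs per kb, H3K9me3-only sequence 42.3% GC and 8.77 CpGs per kb. Soft-masked repeats made up 25% (from 23.3% to 26.8% over the chromosomes) and 38.8% (from 32% to 43.5%). GC ranged from 43.1% to 47.2% for H3K9me1 only and from 39.8% to 44.9% for H3K9me3 only. The order was the same on 9 of 9 chromosomes for each of the 3 measures. Sequence with both marks lay between them, with 43.6% GC, 9.47 CpGs per kb and 30.2% repeats, and unmarked sequence had 41%, 8.13 and 34.2%.

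H3K9me1 lay more in genes and H3K9me3 more between them. Every base got a single class. Promoters (1 kb either side of any annotated start) took precedence, then UTRs, the rest of exons and introns, and what remained was intergenic. Intergenic sequence made up 48% of all bases, 28.1% of H3K9me1-only, 58% of H3K9me3-only and 48.2% of shared bases. Over the chromosomes the H3K9me1-only value ranged from 24.2% to 31.7% and the H3K9me3-only value from 46.4% to 70.3%. Relative to all bases, H3K9me1-only sequence was richer in 3′ UTR (2.27-fold), exon (1.94-fold), 5′ UTR (1.79-fold), promoter (1.42-fold) and intron (1.32-fold), and each of these was above 1 on 9 of 9 chromosomes. H3K9me3-only sequence was poorer in all of them, at 0.371 for 3′ UTR, 0.568 for exon, 0.357 for 5′ UTR, 0.542 for promoter and 0.875 for intron. Intron was above 1 for H3K9me3-only sequence on 3 of 9 chromosomes, and promoter and exon on 1. Shared sequence was close to the average, from 0.836 for promoter to 1.05 for exon. H3K9me1-only lay above H3K9me3-only in all 5 genic classes, and below it in intergenic sequence, on 9 of 9 chromosomes. The 5′ UTR class outside promoters held only 0.0337% of all bases. By the middle base of each region, H3K9me1 had 0.0218% there, below that share. The promoter class counts the starts of all transcripts and genes. Beside the 5′ ends of protein-coding genes H3K9me1 was low, at 20.8% in the kb before and 20.1% in the kb after, against 27.9% of the 9 chromosomes.

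Along genes, both marks dipped at the start, H3K9me1 by more, and H3K9me1 rose on toward the end of the body. Over the 6196 protein-coding genes of at least 10 kb, the mean share of bases with H3K9me1 was 43.7% at 10 to 9 kb upstream, 18.2% in the last kb before the start, 26.7% in the first decile of the body, 39.6% in the next decile and 54.2% in the last. The first decile lay below the last on 9 of 9 chromosomes. Mean H3K9me3 was 16.9%, 11.5%, 12.1%, 13.1% and 15.4% at the same places, and its first decile lay below its last on 8 of 9 chromosomes and below the middle of the body on 9 of 9. In the last decile H3K9me1 ranged from 35.3% to 82.7% and H3K9me3 from 3.95% to 49.6% over the chromosomes, and in the last kb before the start from 8.61% to 34.2% and from 3.7% to 25.4%. H3K9me1 in the middle of the body exceeded that at 10 to 9 kb upstream on 9 of 9 chromosomes, and H3K9me3 did so on 3.

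**Figure D3:**
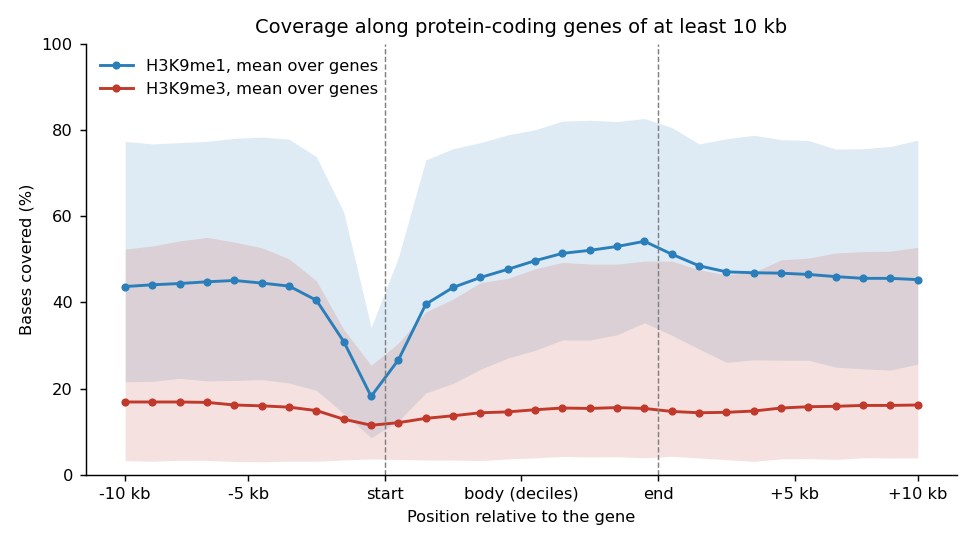
Mean share of bases covered (vertical axis, percent) by H3K9me1 in blue and H3K9me3 in red along 6196 protein-coding genes of at least 10 kb (horizontal axis: 10 kb upstream, 10 deciles of the body, 10 kb downstream), with shading from the lowest to the highest of the 9 chromosomes. H3K9me1 falls to 18.2% before the start and climbs to 54.2% in the last decile, and H3K9me3 has its lowest mean, 11.5%, at the same place and 16.9% at most.

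The balance of the marks shifted with gene length. Mean body coverage was 34.2% for H3K9me1 and 17.4% for H3K9me3 in 1724 genes under 5 kb, 47.3% and 12.5% in 2949 genes of 10 to 30 kb, and 44.1% and 21.4% in 751 genes of 100 to 300 kb. In the 237 genes of 300 kb or more H3K9me3 led, with 31.4% (from 13.2% to 62.1% over the chromosomes) against 23% (from 6.94% to 45.9%) for H3K9me1. It led on 9 of 9 chromosomes, by the least on chromosome 9 (18.4% against 18.3%, 27 genes) and by the most on chromosome 10 (62.1% against 45.9%, 30 genes).

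Of 9632 protein-coding genes on the 9 chromosomes, 5239 (54.4%) had H3K9me1 within 1 kb of an annotated start, 1938 (20.1%) had H3K9me3 and 1320 (13.7%) had both. H3K9me1 ranged from 36.3% of genes on chromosome 14 to 81.7% on chromosome 10, and H3K9me3 from 6.22% on chromosome 11 to 54.5% on chromosome 10. H3K9me1 alone was found at 3919 (40.7%), H3K9me3 alone at 618 (6.42%) and neither at 3775. The 1320 with both compare with 1249.0 expected within chromosomes, a ratio of 1.06, from 0.809 on chromosome 14 to 1.16 on chromosome 15. H3K9me2 stood at 88.3% of the promoters with both marks, 50.5% of those with H3K9me3 alone, 13.9% of those with H3K9me1 alone and 4.16% of the rest. Body coverage went with the state of the promoter. This is partly built in, because an annotated start inside the body counts as a promoter, and the mark there counts in both values. Asic2 had H3K9me3 alone by this rule, though the nearest H3K9me3 lay 183.0 kb from the start of the gene. How much is built in was not tested. Median body coverage of genes of at least 10 kb with H3K9me1 alone at the promoter was 64.2% for H3K9me1 and 0% for H3K9me3. With H3K9me3 alone it was 0% and 52.1%, and with both it was 87.8% and 59.5%. Genes have several annotated starts, and with the 5′ end of the gene alone H3K9me1 was found at 31.3% and H3K9me3 at 15.3% of genes, and the ratio was 1.43.

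Promoters of ribosomal protein, complex I and proteasome genes had no H3K9me3. Of 39 ribosomal protein genes 7 had H3K9me1 and 0 had H3K9me3, against 54.4% and 20.1% of all genes. Of 18 genes listed as respiratory complex I by a symbol starting with Nduf, 9 had H3K9me1, a share near that of all genes, and 0 H3K9me3. In Ndufs7 and Ndufb7, which encode subunits of the complex, H3K9me1 covered 88.5% and 88.3% of the gene. Of 19 genes listed as proteasome by a Psm symbol 5 had H3K9me1 and 0 H3K9me3. Lists drawn by symbol can hold genes that are not parts of the complex, such as Ndufaf3 and Psmc3ip. Among 23 Ddx RNA helicases 8 had H3K9me1 alone and 2 had both, namely Ddx43 and Ddx60, against 40.7% and 13.7% of all genes. Of 19 Hox genes, which set body axis identity, the 10 on chromosome 11 had neither mark. Of all genes on chromosome 11, 37.3% had H3K9me1 and 6.22% H3K9me3. Of the 9 on chromosome 15, 4 had H3K9me1 alone and 1 had both. Of all 785 genes on chromosome 15, 617 had H3K9me1, 247 of them with H3K9me3 as well. Hoxc8 lay wholly under H3K9me1.

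Families of genes with tissue-bound expression varied widely, and their state often differed between chromosomes. Of all genes, 40.7% had H3K9me1 alone, 6.42% H3K9me3 alone, 13.7% both and 39.2% neither. Of 51 defensin genes, which encode antimicrobial peptides of epithelia, 38 had H3K9me3 alone, 1 had H3K9me1 alone and 1 had both. The 46 on chromosome 8 accounted for 37 of the 38, as neighbours in a cluster. Of all 1040 genes on chromosome 8, 305 had H3K9me3, 213 of them together with H3K9me1. Defa5 and Defb14 lay wholly under H3K9me3 with 0% H3K9me1. Of 458 olfactory receptor genes, 39 had H3K9me1 alone, 44 H3K9me3 alone, 116 both and 259 neither. All 70 on chromosome 10, where 510 of 1021 genes had both marks, had both. So did all 9 on chromosome 15, where 247 of 785 genes had both. On chromosome 9, 127 of 132 had neither and the other 5 had H3K9me3 alone. Of all genes on chromosome 9, 46.8% had H3K9me1 and 10.2% H3K9me3. On chromosome 11, 27 of 82 had H3K9me1 alone and 14 both. Of all 1639 genes on chromosome 11, 611 (37.3%) had H3K9me1 and 102 (6.22%) H3K9me3, 37 of them both. The 79 keratin and keratin-associated genes also divided by chromosome. On chromosome 15, 20 of 26 carried both marks, and on chromosome 11, 44 of 50 carried neither. No keratin promoter had H3K9me3 alone. Of 66 vomeronasal receptor genes 49 had neither mark, 39 of these among the 45 on chromosome 17. Of all genes on chromosome 17, 52.4% had H3K9me1 and 14.1% H3K9me3. Of 153 Zfp zinc finger genes 44 had H3K9me1 alone, 13 H3K9me3 alone and 14 both. Members of these families share sequence and lie in clusters, so they are not independent of each other.

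Genes of adhesion and of neuronal signalling are set beside all genes, of which 40.7% had H3K9me1 alone, 6.42% H3K9me3 alone, 13.7% both and 39.2% neither. Among 22 glutamate and GABA receptor genes 9 had H3K9me3 alone at the promoter, 4 H3K9me1 alone, 3 both and 6 neither. In Grid1, a delta glutamate receptor, H3K9me3 covered 76.5% and H3K9me1 7.57% of the body, while Grin3b, an NMDA receptor subunit, lay wholly under H3K9me1 with 0% H3K9me3. Of 23 cadherins and protocadherins 9 had neither mark, 6 H3K9me3 alone, 7 both and 1, Cdhr4, H3K9me1 alone. Cdh11, a mesenchymal cadherin, had 68.7% H3K9me3 and 0% H3K9me1 over its body. Pcdh8 lay wholly under H3K9me3 and had 0% H3K9me1, and Cdh15, the muscle cadherin, lay wholly under H3K9me1 and had 66.4% H3K9me3. Of 37 potassium channel genes 13 had H3K9me1 alone, 10 H3K9me3 alone, 7 both and 7 neither, so that 54.1% had H3K9me1, near the 54.4% of all genes, and 45.9% H3K9me3 against 20.1%. Kcnmb1, a BK channel subunit of smooth muscle, lay wholly under H3K9me3 and had 0% H3K9me1. In Kcnh3 H3K9me1 covered 95% and H3K9me3 0%.

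Of 21 collagen genes, the matrix genes of fibroblasts and cartilage, 16 (76.2%) had H3K9me1 at the promoter against 54.4% of all genes, 7 of them with H3K9me3 as well. Of these 21, 5 lie on chromosome 10, 3 on 15 and 2 on 8, where H3K9me1 stood at 81.7%, 78.6% and 67.3% of all promoters. Col1a1, the main fibroblast collagen, had neither mark at its promoter and 0% of either over its body, and Col12a1 had neither at the promoter and 3.13% H3K9me1. H3K9me1 covered 38.5% of Col4a1 and 31.2% of Col4a2, the basement membrane chains, and H3K9me3 covered 0% of either. Col6a1 had 93.3% H3K9me1 and 19.9% H3K9me3, and Col6a2 had 92.4% and 52%. The cluster of Col6a4, Col6a5 and Col6a6 on chromosome 9 had more H3K9me3 than H3K9me1, with 79.7%, 72.3% and 76.5% H3K9me3 and 14.9%, 6.46% and 3.7% H3K9me1. Col2a1, the cartilage collagen, carried both, with 92.3% H3K9me1 and 64.1% H3K9me3, as did Col14a1, with 89.1% and 81.7%. Of 58 cytochrome P450 genes, which encode enzymes of steroid and drug metabolism, 22 had both marks, 15 H3K9me1 alone, 9 H3K9me3 alone and 12 neither, against 13.7%, 40.7%, 6.42% and 39.2% of all genes. All 10 on chromosome 15 were among the 22. The steroid enzyme genes Cyp11b1 and Cyp11b2 lay wholly under both marks, whereas Cyp17a1, another steroid enzyme gene, had 75% H3K9me1 and 0% H3K9me3. The near-identical members of such families can share reads, and how reads with several matches were treated is not given in the sources used here.

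**Figure D4:**
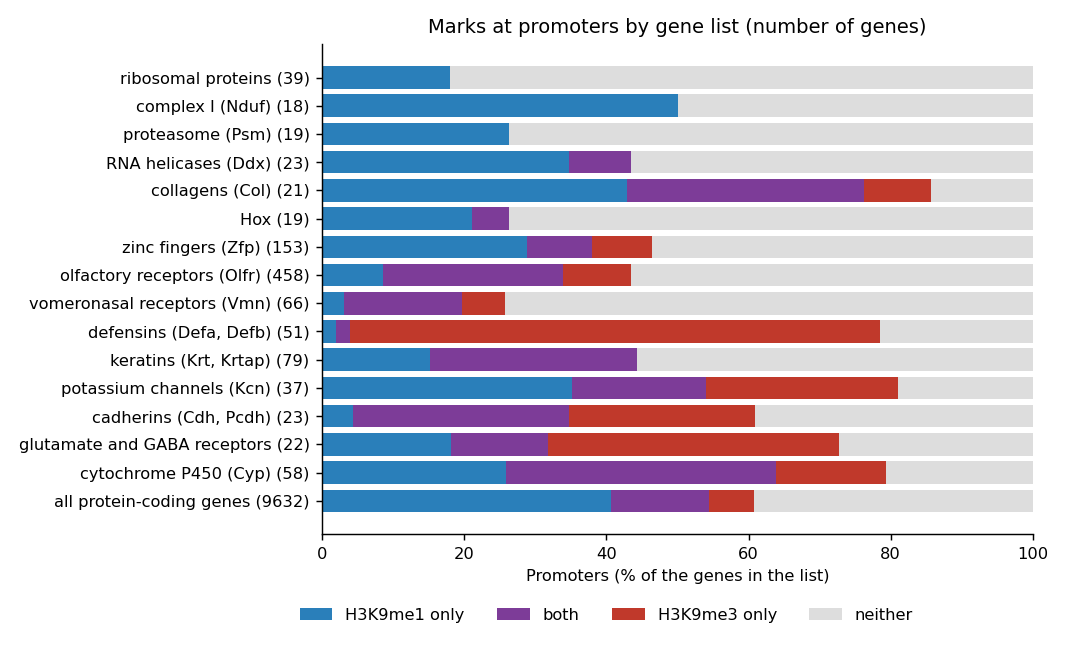
Share of genes (horizontal axis, percent) whose promoter carried H3K9me1 only, both marks, H3K9me3 only or neither, for 15 gene lists and for all 9632 protein-coding genes (vertical axis, number of genes in brackets). Ribosomal protein, complex I and proteasome genes have no H3K9me3 at any promoter, and the defensins have H3K9me3 alone at 38 of 51.

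Long genes show the arrangements most plainly. Of 4123 named genes of at least 20 kb, 1189 (28.8%) had H3K9me1 over at least 50% and H3K9me3 over less than 5% of the body. The converse held for 118 (2.86%). Each mark by itself covered at least 50% of the body, shared or not, in 348 (8.44%). A further class of 18 (0.437%) had at least 25% of each with at most 10% shared. The genes named next are those with the most covered sequence in each class, so their values describe what chose them.

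The H3K9me1 genes included Pard3, a scaffold of cell polarity, with H3K9me1 over 82.6% of 548.4 kb and H3K9me3 over 0%. Mad1l1 had 86% and 0% over 312.9 kb, and Utrn, the relative of dystrophin, 74.9% and 0% over 487.2 kb. In Arid1b, which encodes a BAF chromatin remodelling subunit, H3K9me1 covered 87.3% and H3K9me3 1.49%. Ptprk, a receptor tyrosine phosphatase, had 72.6% and 2.01%, and Vps13b, a lipid transfer protein of the Golgi, 61.9% and 3.21%. Within these genes H3K9me1 reached the last decile, at 97.3% in Pard3, 96% in Ptprk, 88% in Mad1l1 and 87.9% in Vps13b, and all of it in Arid1b. In Utrn it covered 59.1% of the last decile, below its 74.9% over the body. H3K9me2 was low in all 6, from 0% in Mad1l1 to 8.88% in Ptprk.

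The H3K9me3 genes were longer, from 651.4 to 1106.0 kb. Auts2, a gene of brain development, had H3K9me3 over 93.2% of its body and H3K9me1 over 0.151%. Sdk1, a synaptic adhesion protein, had 97% and 0.77%, and Tmem132d, which encodes a membrane protein, 99% and 0%. Dpp6, an auxiliary subunit of potassium channels, had 71.1% and 0%. In Ptprm, a receptor tyrosine phosphatase like Ptprk, the marks stood the other way from its relative, with 91.5% H3K9me3 and 0.873% H3K9me1. Asic2, an acid-sensing ion channel, had 53.5% and 0.413%, and its H3K9me3 lay away from the start, with 0% in the first decile and 95.9% in the eighth. H3K9me2 covered 0.23% of Tmem132d and 8.75% of Auts2, but 41.2% of Sdk1.

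Genes under both marks lay mainly on the densely covered chromosomes, 174 of the 348 on chromosome 10, 76 on 15 and 58 on 8, and 0 on chromosome 11. Their median H3K9me2 coverage was 86.9%. Anks1b, a postsynaptic protein, had 69.2% H3K9me1, 94.4% H3K9me3 and 66.3% with both over 1099.8 kb. Within it H3K9me1 fell from 91.8% in the second decile to 20.5% in the fifth and returned to 99.3% in the last, while H3K9me3 stayed at 82.3% or more. Zfhx3, a homeobox factor, had H3K9me3 over 89% of its first decile and 0% of its last, and H3K9me1 over 81% and 82.3%. Only 31.7% of its body carried both. Ano4, of the anoctamin family, carried both over 87.5% of its length. Trappc9, of the TRAPP trafficking complex, had 95.4% H3K9me1 and 70.9% H3K9me3, and Rims2, of the presynaptic active zone, 78.3% and 68.4%.

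In the 18 side-by-side genes the body was divided between the marks. Wwox, an oxidoreductase gene of 913.1 kb, carried H3K9me1 over 72.3% of its first decile and 14.8% of its last, and H3K9me3 over 0% and 45%, with a peak of 92.6% in the seventh. Psd3, an exchange factor for ARF proteins, had 78.5% H3K9me1 in the fifth decile and 0% in the last, where H3K9me3 was 74.2%. Bri3, a membrane protein gene, had 80.9% H3K9me1 and 0% H3K9me3 in the fourth decile, and in the last decile 0% H3K9me1 with H3K9me3 throughout. Tmem108, a transmembrane protein gene, ran the opposite way, with H3K9me3 at 67.7% in the second decile and 0% in the last, and H3K9me1 at 16.1% and 36.9%. Tpd52l1 had the marks alternating, with H3K9me1 at 77% in the third decile and 17.4% in the fourth, where H3K9me3 was 93.4%. Tmem150c, a membrane protein gene, was wholly H3K9me3 in the first decile, where H3K9me1 was 0%, and in the last H3K9me3 was 0% and H3K9me1 53.4%.

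**Figure D5:**
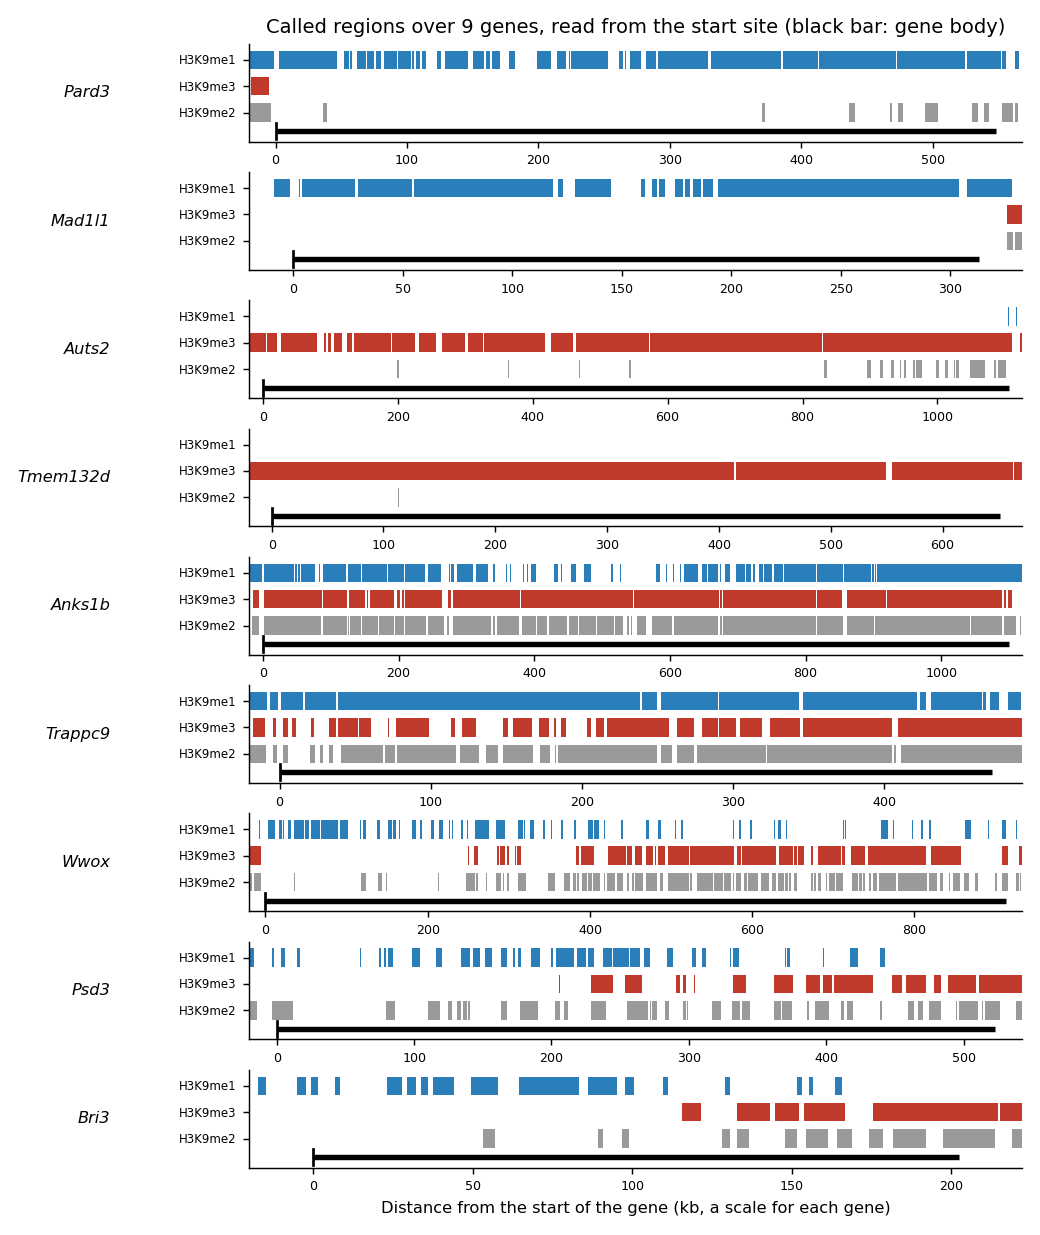
Called regions of H3K9me1 (blue), H3K9me3 (red) and H3K9me2 (grey) over 9 genes and 20 kb either side (horizontal axis, kb from the start of the gene, with its own scale for each gene; black bar, gene body). Pard3 and Mad1l1 carry H3K9me1 and Auts2 and Tmem132d H3K9me3, Anks1b and Trappc9 carry both, and in Wwox, Psd3 and Bri3 H3K9me1 gives way to H3K9me3 along the body.

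Genes that the study's text uses as examples spanned the same range. Tcap, the titin cap gene of muscle, lay wholly under H3K9me1, with the nearest H3K9me3 229.5 kb from its start. Bbs9, of the BBSome of cilia, had 46.5% H3K9me1 and 0% H3K9me3. Cacna1i, a T-type calcium channel, had 91.9% and 20.1%, nearly all of the H3K9me3 being shared (19.4%). Pou5f1, which encodes the pluripotency factor Oct4, had 73.2% H3K9me1 and 0% H3K9me3. Tlr3, the sensor of double-stranded RNA, had 34.1% and 2.18%. Nkx6-1, a homeobox gene of neural and pancreatic progenitors, was the reverse, with 47.3% H3K9me3 and 0% H3K9me1. Treml4, a receptor of myeloid cells, and Defb40, a defensin, carried neither mark, but H3K9me2 over 38% and 52.9%. Olfr1431 had 38.9% H3K9me1, 6.49% H3K9me3 and 77.9% H3K9me2.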

How the data were processed

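ChIP-seq of wild-type MEFs covered 8 samples. According to the study's methods and processing notes, the authors aligned reads to mm10 (GRCm38) with BWA 0.7.1 and called regions with histoneHMM. The calling threshold and the handling of replicates and input are not given in the sources used here. The deposited lists hold chromosome, start and end only. They give no read depth, and 0 columns of per-sample values were left out. The input has no list analysed here.

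Region coordinates were taken as 1-based with inclusive ends, which put every end on a grid of 750 bp. Sharing by chromosome or window, changes of a mark at ends and the borders of stretches used all bins, so that uncalled gaps of N count as unmarked. States, bands beside ends, composition and third-mark values used bins without N. Expected shared length is the sum over chromosomes or windows of coverage times coverage times length. GENCODE M21 supplied the genes and the RefSeq GRCm38 genome the sequence. A promoter was marked when a region lay within 1 kb of any annotated start. Gene lists were drawn by symbol. Named genes were the study's text examples and the 6 with most covered kb in each of 4 classes of long genes, leaving out symbols of the form Gm plus number or ending in Rik. Of the items so chosen, 1 gene and 1 sequence are not reported here. The members and lists were chosen with earlier results of these data known.

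No test was made, because each mark has 1 list and no value per replicate. Intervals are 95% Wilson intervals for counting error. Neighbouring bins, regions and genes are not independent. Measures were tested on simulated data. Alternatives covered region width, joining, windows, promoter definitions, chromosomes and bins with H3K9me2 (keeping those bins alone was added after seeing the data). Computation ran in Python 3.11.15 with SciPy 1.17.1 and NumPy 2.4.6, and plots were drawn with Matplotlib 3.10.9.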

Additional observations from a re-analysis of the deposited data

Results flagged for a closer look

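The chromosomes outside the comparison also held called regions. The H3K9me1 list had 5930 regions on 11 further chromosomes and the H3K9me3 list 3753 on 12. They were flagged because they lie outside the comparison of the 9 chromosomes and exceed a count of 0. Why these chromosomes hold so few of the regions was not tested, and whether calling differed by chromosome is not given in the sources used here. With all chromosomes included, the shared length over expected was 1.06, against 1.05 on the 9.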

How the results depend on the processing

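The share of H3K9me1 and H3K9me3 length in common lay so near its expectation that small choices turned its side of 1. Shared length over expected was 1.05. It became 0.988 with chromosome 10 left out, 0.328 with H3K9me2 bins left out and 0.963 with only H3K9me2 bins. It was 1.07 for regions of at least 5 kb and with chromosome 5, 9 or 19 left out, 1.06 without chromosome 11 and with all chromosomes, 1.05 without chromosome 15, 1.04 without chromosome 8 or 17, 1.03 with regions up to 1.5 kb apart joined and 1.02 for bins without N. The local ratio of 1.04 (1 Mb windows) became 0.971 in 10 Mb windows, 1 at 2 Mb, 1.07 at 500 kb, 1.06 at 100 kb, 1.02 with regions joined, 0.677 with H3K9me2 bins left out and 0.986 with only those. H3K9me1 regions meeting H3K9me3 went from 35.6% to 28.8% when 50% of the region had to be covered, 7.58% for 50% of both and 33.4% for regions of at least 5 kb. H3K9me3 regions meeting H3K9me1 went from 45.9% to 36.1%, 11.9% and 38.4%. H3K9me1 within 3 kb of H3K9me3 ends, 0.718 of its mean outside, was 0.691 and 0.512 beside H3K9me3 regions of at least 5 and 20 kb and 0.454 with H3K9me2 bins left out, below 1 in each. Leaving out H3K9me2 bins moves the ratios above by construction, by an amount that was not tested.

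Promoters with H3K9me1 went from 54.4% to 49.1% for 500 bp, 64.2% for 2 kb, 31.3% for the 5′ end alone, 45.6% for all annotated genes and 43.9% for regions of at least 5 kb. Those with H3K9me3 went from 20.1% to 18.7%, 23.6%, 15.3%, 25.3% and 16.1%. Promoters with both over expected, 1.06, became 0.978 for 2 kb, 0.978 for all genes and 1.43 for the 5′ end alone. By the middle base of each region, H3K9me1 was 39.4% intergenic (35.2% by bases) and 7.76% promoter (8.04%), and H3K9me3 55% (54.2%) and 4.93% (4.33%). The 5′ UTR share of H3K9me1 went from 0.0501% by bases to 0.0218% by the middle base, and so to the other side of the 0.0337% of all bases. The causes were not tested, beyond the fewer or other bins, regions and starts that each alternative counts.

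No paired analysis was possible because each mark has 1 list with no value per replicate, and for the same reason leaving out a replicate was not run. Depth cannot be read from the lists, so an uncalled bin is not shown to lack a mark. With no score in the lists, region width stood in for a stricter threshold.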
